A study of Mus musculus with 2 samples.

Results

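The part of mouse chromosome 12 nearest the centromere holds Iah1, the gene removed in this study, and 56 protein-coding genes on both sides of it were followed here. They were chosen by position, but they are not a complete block. Between the first and last of them lie 72 other measured genes of any type, of which 21 reached the intensity filter used below. The choice was made with earlier results of these data known. The array annotation gave 54 of the 56 a probe set of their own, out of 22180 genes named on the array, and 42 of the 54 reached the intensity filter used below. Liver RNA was compared between male mice lacking Iah1 in the whole body (Iah1-KO) and male mice with the gene (Iah1-WT). Both groups changed from laboratory chow to a high-fat diet at 6 weeks of age, stayed on it for 12 weeks, and went without food for 4 hours before tissue was taken. Each genotype was 1 Affymetrix array that carried RNA combined from 3 mice, so no value has a replicate error and no test between the genotypes was possible. The strain and the way the Iah1 allele was made are not given in the sources used here.

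Iah1 encodes a hydrolase of the same family as a yeast enzyme that splits isoamyl acetate. A knockout changes the DNA at 1 locus, and genes beside that locus stay linked to it when the line is bred, so they can carry the sequence of the founder strain and can lie near an inserted cassette. Expression of neighbours is therefore a common check on a knockout line. The genes of this region have no common function: they include transcription factors, nucleolar and ribosomal proteins, metabolic enzymes, vesicle tethers, cilium proteins, signalling proteins and genes used mainly in neurons.

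Values are log2 RMA values, a scale on which background has been subtracted and the arrays made alike, and on which 1 unit is a doubling of signal. Differences are Iah1-KO minus Iah1-WT on that scale. The filter was the median, over all genes, of the higher of the 2 array values (4.68), and 11090 genes reached it. A difference was counted at 1.5-fold or more (0.58 on the log2 scale). Probe sets of 1 gene disagreed with a standard deviation of 0.26 in this difference (326 genes with 2 or more probe sets at or above the filter), which covers probes and not mice, labelling or hybridisation. The median over all 41345 probe sets was 4.10 in Iah1-KO and 4.08 in Iah1-WT. All 10 hepatocyte markers lay above the filter in both arrays, with Cps1, a urea cycle enzyme, at 11.93 in Iah1-KO and 12.07 in Iah1-WT.

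Iah1 itself had a value of 3.90 in Iah1-KO and 8.59 in Iah1-WT. The Iah1-KO value lay below the filter, and against the filter the transcript was at least 15.1-fold lower. Iah1 had the lowest difference of all 11090 genes, at -4.69. Its promoter is shown with those of Adam17, the nearest protein-coding gene on the far side of Iah1, and of Eipr1, which had the largest difference of the 42 listed genes at or above the filter. Each is the 250 bases before the start site used for the RefSeq promoter in build GRCm38.p6. It is written 5′ to 3′ on the gene's strand, with GC boxes (GGGCGG, either strand) and CCAAT boxes (CCAAT, either strand) in capitals. The Iah1 and Eipr1 windows overlap the RefSeq span of their own gene, so they need not lie wholly before it. The Adam17 window overlaps no gene in RefSeq. The Iah1 window (chr12:21316142-21316391, plus strand) held 3 GC boxes. The Adam17 window (chr12:21373633-21373882, minus strand) held 1 GC box. The Eipr1 window (chr12:28751569-28751818, plus strand) held 1 GC box and 1 CCAAT box.
Iah1: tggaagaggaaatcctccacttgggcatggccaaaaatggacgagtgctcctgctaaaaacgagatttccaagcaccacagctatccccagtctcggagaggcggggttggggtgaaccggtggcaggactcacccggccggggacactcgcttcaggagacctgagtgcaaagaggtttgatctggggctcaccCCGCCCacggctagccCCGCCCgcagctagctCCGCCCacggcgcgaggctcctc
Adam17: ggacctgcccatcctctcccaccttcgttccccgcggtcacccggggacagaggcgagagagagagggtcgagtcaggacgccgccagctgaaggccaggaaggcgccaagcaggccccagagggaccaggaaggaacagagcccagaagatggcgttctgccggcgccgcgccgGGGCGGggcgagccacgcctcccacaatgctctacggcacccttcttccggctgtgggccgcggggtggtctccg
Eipr1: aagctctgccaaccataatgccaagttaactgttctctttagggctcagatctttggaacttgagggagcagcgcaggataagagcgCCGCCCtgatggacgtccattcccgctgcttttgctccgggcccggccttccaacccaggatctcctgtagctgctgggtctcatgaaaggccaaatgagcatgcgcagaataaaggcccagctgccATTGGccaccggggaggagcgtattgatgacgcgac

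RefSeq promoter windows were found for 51 of the 56 genes. A GC box was present in 33 of them (64.7%), beside 42.7% of 17492 promoters of protein-coding genes cut to the same length. The CCAAT box was present in 33.3% of them and in 36.3% of all these promoters, and the TATA box (TATAAA, either strand) in 5.88% of them and in 12.4% of all. The median number of CG dinucleotides in the window was 17 for the chromosome 12 genes and 10 for all. These are matches of letters and say nothing of binding in liver.

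Eipr1 was the 1 gene of the 42 that differed by 1.5-fold or more. It was higher in Iah1-KO, and none was lower by that amount. Over all 11090 genes, 1.47% were higher and 2.45% were lower by 1.5-fold or more, so 1 and 0 of 42 lie near the background. Counted at a lower threshold of 0.32 on the log2 scale, 2 of the 42 were higher (background 6.62%) and 4 were lower (background 10.4%), and at 2-fold none was higher or lower (background 0.135% and 0.307%). The median difference of the 42 was -0.05, beside -0.02 over all genes, and the median absolute difference was 0.12, beside 0.14 over all genes. A difference smaller than the probe set standard deviation was seen in 35 of the 42 (83.3%), beside 75.6% of all genes. Negative differences were more frequent than positive ones, with 29 of 42 below 0 (69.0%) beside 55.7% of all genes, and this count fell to 24 after quantile normalization again or subtraction of the median, and to 23 after a loess fit. In the same settings the share of all genes below 0 was 50.4% after quantile normalization and 50% to the nearest whole percent in the other two. Counts above and below 0, here and in the lists below, include differences of 0.04 or less in size, whose sign can change with the scaling of the arrays.

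**Figure D1:**
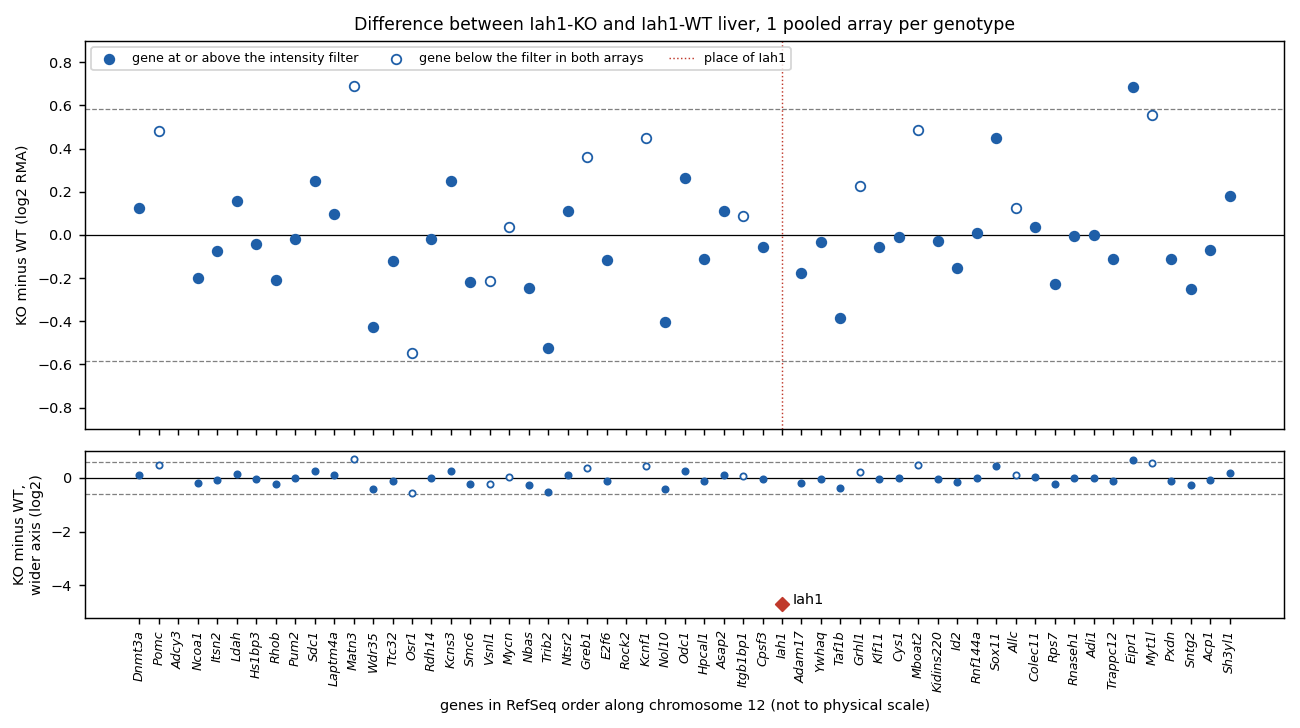
Iah1-KO minus Iah1-WT (log2 RMA, vertical axis) for each measured gene in RefSeq order along chromosome 12 (horizontal axis), with filled points for genes at or above the intensity filter, open points for genes below it in both arrays, and dashed lines at 1.5-fold. The lower panel repeats the points on a wider axis to show Iah1 at -4.69, while among the filled points Eipr1 alone lies past a dashed line.

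In chromosome order, positive and negative differences stood both before and after Iah1. The 23 genes at or above the filter that come before Iah1 had a median of -0.05 and ran between -0.52 for Trib2 and 0.26 for Odc1. The 19 that come after it had a median of -0.03 and ran between -0.39 for Taf1b and 0.68 for Eipr1. For the 5 nearest of the listed genes on each side of Iah1, 8 of which reached the filter, the median was -0.05, beside -0.03 for the other 34. Odc1, in the nearest group, lies 26 protein-coding genes from Iah1. Cys1, in the other group, lies 20 from it, so the groups overlap in distance. Counting protein-coding genes in RefSeq order, Taf1b stands 17 places from Iah1, Nol10 27, Sox11 28, Eipr1 36, Trib2 38 and Wdr35 54. These are the 6 genes past the lower threshold by RMA values, and none is an immediate neighbour. Sox11 is among them by a value below the filter in Iah1-WT, and against the filter it does not reach that threshold.

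The immediate neighbours of Iah1 had gene-level differences smaller than the probe set standard deviation of 0.26, as had 75.6% of all genes. Cpsf3, the endonuclease that cuts pre-mRNA before poly(A) addition, precedes Iah1 and had 7.51 in Iah1-KO and 7.56 in Iah1-WT, a difference of -0.05. Adam17, the sheddase that releases TNF and EGF receptor ligands from the cell surface, follows Iah1 and had 6.38 in Iah1-KO and 6.56 in Iah1-WT, a difference of -0.18. In size this is above the median absolute difference of 0.14 over all genes. Itgb1bp1, which binds the tail of beta1 integrin, is the next gene before Cpsf3 and has a pair of probe sets. The brighter one had 5.86 in Iah1-KO and 5.95 in Iah1-WT, while the other lay below the filter, at 3.09 in Iah1-KO and 2.82 in Iah1-WT, and so did their mean. Asap2, which stimulates GTP hydrolysis by ARF proteins, had 5.18 in Iah1-KO and 5.07 in Iah1-WT.

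Ywhaq, an adaptor that binds phosphorylated proteins, is the gene after Adam17 and has 4 probe sets that did not share a direction. Their differences were -0.18, -0.01, 0.18 and -0.13, and the gene mean was 6.11 in Iah1-KO and 6.14 in Iah1-WT. The brightest of the 4 had 9.70 in Iah1-KO and 9.71 in Iah1-WT. Taf1b, at 17 places from Iah1, is the nearest of the listed genes past the lower threshold. None of the genes between Asap2 and Ywhaq, Iah1 aside, had a gene-level difference beyond the probe set standard deviation.

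**Figure D2:**
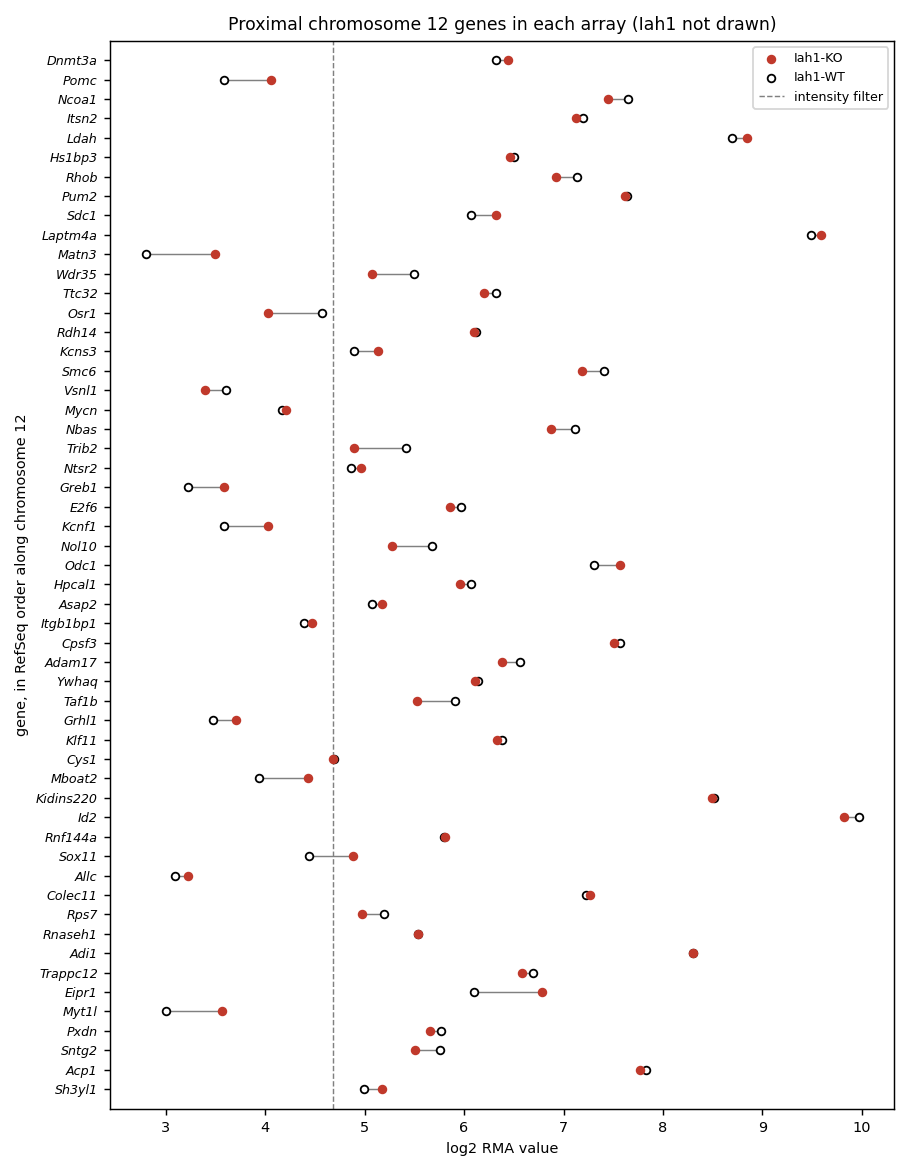
Log2 RMA value (horizontal axis) of each measured gene in RefSeq order (vertical axis), with filled points for Iah1-KO, open points for Iah1-WT and a line joining the pair. The points of most genes nearly coincide, while Eipr1 has 6.78 in Iah1-KO and 6.10 in Iah1-WT, and the dashed line marks the intensity filter at 4.68.

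Membrane traffic and cilium genes held both the highest difference of the 42 listed genes at or above the filter and one of the lowest. Eipr1, a partner of the EARP and GARP tethering complexes that act between endosomes and the Golgi, had 6.78 in Iah1-KO and 6.10 in Iah1-WT. It was 1.61-fold higher in Iah1-KO and ranked 92 of 11090 genes counted from the highest difference. It has 1 probe set, so no second measurement on the array bears on it. Trappc12, a subunit of the TRAPP tethering complex and the gene next to Eipr1 in RefSeq order, had 6.59 in Iah1-KO and 6.70 in Iah1-WT. Wdr35, a subunit of intraflagellar transport complex A, which carries proteins back along the cilium, was 1.34-fold lower, at 5.07 in Iah1-KO and 5.50 in Iah1-WT. Nbas, a subunit of the tether that receives Golgi vesicles at the endoplasmic reticulum, had 6.87 in Iah1-KO and 7.12 in Iah1-WT.

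The other 6 genes of this role lay between -0.12 and 0.18. The cilium protein gene Cys1 sat at the filter, with 4.68 in Iah1-KO and 4.69 in Iah1-WT. Sh3yl1, which binds phosphoinositides, had 5.18 in Iah1-KO and 4.99 in Iah1-WT. Laptm4a, a lysosomal membrane protein gene, differed by 0.10, Itsn2, an endocytic scaffold, by -0.07, and Ttc32 by -0.12. Of the 10 genes, 4 lay above 0 and 6 below.

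Genes of RNA processing and translation all lay below 0, by amounts between -0.01 and -0.40. Nol10, a nucleolar protein of ribosome assembly, was 1.32-fold lower, at 5.28 in Iah1-KO and 5.68 in Iah1-WT. Rps7, a protein of the small ribosomal subunit, had 4.97 in Iah1-KO and 5.20 in Iah1-WT. Many ribosomal protein genes have processed copies elsewhere in the genome, which makes this value uncertain. Pum2, which represses mRNAs through their 3′ untranslated regions, differed by -0.02 and Rnaseh1, which removes RNA from RNA-DNA hybrids, by -0.01. The signs of these last 2 changed with the scaling of the arrays.

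Among 13 genes of transcription and chromatin, 8 reached the filter, with 2 above 0 and 6 below. Taf1b, a subunit of the selectivity factor that recruits RNA polymerase I to ribosomal DNA, was 1.31-fold lower, at 5.53 in Iah1-KO and 5.91 in Iah1-WT. Sox11, a transcription factor of developing neurons, was below the filter in Iah1-WT and had 4.89 in Iah1-KO and 4.44 in Iah1-WT. Against the filter it was at least 1.16-fold higher. Dnmt3a, a DNA methyltransferase that sets new methylation, had 6.44 in Iah1-KO and 6.32 in Iah1-WT.

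The remaining factors were below 0 by smaller amounts. Ncoa1, a coactivator of nuclear receptors, had 7.45 in Iah1-KO and 7.65 in Iah1-WT. Smc6, the core of a complex that keeps chromosomes stable during DNA repair, had 7.19 in Iah1-KO and 7.41 in Iah1-WT. Id2, which binds and blocks E proteins, had 9.82 in Iah1-KO and 9.97 in Iah1-WT. E2f6, a repressor of the E2F family, differed by -0.12 and Klf11 by -0.05.

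Of 7 metabolic enzyme genes, 5 reached the filter. Odc1, which makes putrescine in the first step of polyamine synthesis, had 7.57 in Iah1-KO and 7.31 in Iah1-WT and was 1.20-fold higher. Ldah, a serine hydrolase of lipid droplets, had 8.85 in Iah1-KO and 8.69 in Iah1-WT. These were the 2 of the 5 above 0, with 3 below. Adi1, a dioxygenase of the methionine salvage pathway, had 8.30 in both arrays. Acp1, a small tyrosine phosphatase, differed by -0.07 and the retinol dehydrogenase gene Rdh14 by -0.02.

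Signalling and cytoskeleton genes lay below or close to 0, with 6 of the 7 at or above the filter on the negative side, 2 of them by no more than 0.04 and with a sign that changed with scaling. Trib2, a pseudokinase that steers proteins to ubiquitin ligases, had the lowest difference of the 42 listed genes at or above the filter and was 1.44-fold lower, at 4.89 in Iah1-KO and 5.42 in Iah1-WT. Sntg2, a syntrophin, had 5.51 in Iah1-KO and 5.76 in Iah1-WT. Rhob, a small GTPase of endosomes, had 6.93 in Iah1-KO and 7.14 in Iah1-WT. Hs1bp3, Kidins220, Ywhaq and the ubiquitin ligase gene Rnf144a lay between -0.04 and 0.01. Adcy3, an adenylyl cyclase, shares its 1 probe set with its neighbour Cenpo, and that probe set had 4.86 in Iah1-KO and 4.44 in Iah1-WT. Rock2, a kinase that acts on the actin cytoskeleton, had no probe set named for it alone.

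Surface, secreted and neural genes had 7 of 11 at or above the filter, with 4 above 0 and 3 below. Sdc1, the heparan sulfate proteoglycan by which hepatocytes take up lipoprotein remnants, had 6.32 in Iah1-KO and 6.07 in Iah1-WT, and its probe sets differed by 0.08 and 0.42. Kcns3, a potassium channel subunit, had 5.14 in Iah1-KO and 4.89 in Iah1-WT. Colec11, a lectin of complement made in liver, had 7.27 in Iah1-KO and 7.23 in Iah1-WT. Pxdn, a peroxidase that crosslinks collagen of basement membranes, had 5.66 in Iah1-KO and 5.77 in Iah1-WT. The calcium sensor gene Hpcal1 differed by -0.11 and the neurotensin receptor gene Ntsr2 by 0.11.

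The 12 genes below the filter in both arrays included genes known mainly from other tissues. They were Pomc, Matn3, Osr1, Vsnl1, Mycn, Greb1, Kcnf1, Itgb1bp1, Grhl1, Mboat2, Allc and Myt1l, with values between 2.80 and 4.57. Matn3, a cartilage matrix protein, had 3.49 in Iah1-KO and 2.80 in Iah1-WT, and Myt1l, a neuronal transcription factor, had 3.56 in Iah1-KO and 3.01 in Iah1-WT. Pomc, the precursor of pituitary and hypothalamic peptides, had 4.06 in Iah1-KO and 3.58 in Iah1-WT. Osr1, a developmental transcription factor, had 4.02 in Iah1-KO and 4.57 in Iah1-WT. In 10 of the 12 the difference was above 0, beside 5933 of all 11090 genes below the filter. The median difference of the 12 was 0.29, beside 0.02 for those 11090 genes. No fold is given for these genes, because the gene value lay below the filter in both arrays, although the brighter probe set of Itgb1bp1 was above it.

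**Figure D3:**
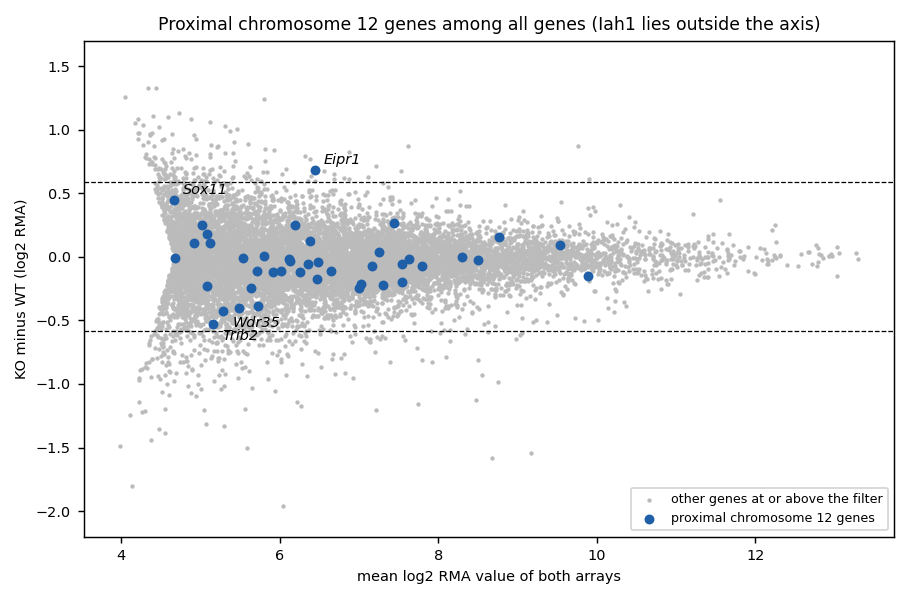
Iah1-KO minus Iah1-WT (log2 RMA, vertical axis) against the mean of both arrays (horizontal axis) for the 11090 genes at or above the filter, with the proximal chromosome 12 genes in blue and dashed lines at 1.5-fold. Eipr1, at 0.68, is the blue point outside the dashed lines, and Trib2, Wdr35 and Sox11 lie inside them at low signal.

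The spread of differences depended on signal, and the named genes are best read within it. With the 11090 genes split by mean signal into 4 groups of equal size, the standard deviation of the difference was 0.36 in group 1, the dimmest, 0.28 in group 2, 0.20 in group 3 and 0.16 in group 4, the brightest. Trib2, Sox11 and Wdr35 belong to group 1, Nol10 and Taf1b to group 2, and Eipr1 to group 3. In group 3, 12 of 2772 genes were higher and 28 lower by 1.5-fold or more. In group 1, 121 of 2773 were higher and 152 lower. The background over all genes given above is thus drawn largely from dim genes. The 7 chromosome 12 genes of group 4, Id2, Laptm4a, Ldah, Kidins220, Adi1, Acp1 and Pum2, stayed between -0.15 and 0.16.

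Partners of these genes were read from lists chosen by function. The counts and medians of each list include its chromosome 12 genes, so they are not independent of the values above. Over all genes at or above the filter, 55.7% lay below 0, and the counts of every list are to be read beside that share. Genes for vesicle tethering had 17 members at or above the filter, 6 above 0 and 11 below, with a median of -0.09 beside -0.02 over all genes. Eipr1 was the 1 past 1.5-fold. Vps53 and Vps50, subunits of the complexes that Eipr1 joins, had differences of -0.36 and -0.25, while 2 further subunits, Vps54 and Vps52, had differences of -0.09 and 0.18, so the subunits did not share a direction. Rint1, a partner of Nbas, differed by -0.28 and Trappc8 by -0.28. Zw10, a further partner of Nbas, differed by 0.26, so these partners did not share a direction either.

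Genes of intraflagellar transport complex A and the cilium had 8 of 9 members below 0 and a median of -0.19, with none past 1.5-fold. Over all genes 55.7% lay below 0, with a median of -0.02. Cys1, at -0.01, is among the 8, and its sign changed with the scaling of the arrays. Wdr35 belongs to this list. Ift140, another subunit, had 5.47 in Iah1-KO and 5.81 in Iah1-WT, and Wdr19 had 5.15 in Iah1-KO and 5.36 in Iah1-WT. Ttc21b was below the filter in Iah1-KO, at 4.63 in Iah1-KO and 5.11 in Iah1-WT, which is at least 1.35-fold lower against the filter. Ift122 was the 1 member above 0, at 0.13.

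The RNA polymerase I initiation list had 6 members above 0 and 8 below and a median of -0.01. Taf1b was its lowest member. Taf1c, a subunit of the same selectivity factor, was below the filter in Iah1-WT, with 5.06 in Iah1-KO and 4.28 in Iah1-WT, and against the filter it does not reach 1.5-fold. The polymerase subunit genes Twistnb and Znrd1 differed by -0.21 and 0.19. The pre-mRNA cleavage list, Cpsf3 included, had a median of 0.04, with 8 of 15 above 0. It ran between -0.23 for Nudt21 and 0.22 for Fip1l1, with Cpsf6 at 0.17 and Cpsf4 at -0.15. The SMC5/6 complex list had 6 of 8 below 0 and a median of -0.09, with Smc6 at -0.22, Nsmce1 at -0.21, Slf2 at -0.10 and Smc5 at 0.16.

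The ADAM17 list had 10 of 12 below 0 and a median of -0.18. Egfr, the receptor for several ADAM17 products, had 10.17 in Iah1-KO and 10.56 in Iah1-WT, and its ligand gene Tgfa had 5.90 in Iah1-KO and 6.38 in Iah1-WT. Adam10, the related sheddase, differed by -0.30 and the inhibitor gene Timp3 by -0.21. None of the members of this list reached 1.5-fold.

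For Odc1, the list of polyamine synthesis and methionine salvage had 10 of 13 below 0 and a median of -0.06. Odc1 was its highest member, while Sat1, which acetylates polyamines for export, had 7.71 in Iah1-KO and 8.14 in Iah1-WT and Smox, which oxidises spermine, 4.86 in Iah1-KO and 5.14 in Iah1-WT. Enoph1, of the methionine salvage pathway, differed by -0.27. The list around the lipid enzymes Mboat2, Ldah and Rdh14 had 4 of 7 above 0 and a median of 0.03, with Lpcat1, which was below the filter in Iah1-WT and 4.92 in Iah1-KO, higher by RMA values, Lpcat3 at -0.16 and Rdh10 at 0.09.

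The lectin pathway list had 7 of 8 below 0 and a median of -0.15, and Colec11 was its 1 member above 0. Colec10, the lectin with which Colec11 forms complexes, had 6.78 in Iah1-KO and 7.32 in Iah1-WT and was 1.45-fold lower. C2 differed by -0.38, Fcna by -0.29 and Masp1 by -0.26. In the DNA methylation list 3 of 7 lay above 0, with a median of -0.10. Tet2, which oxidises methylcytosine, was 1.60-fold lower, at 6.00 in Iah1-KO and 6.67 in Iah1-WT. Uhrf1 was below the filter in Iah1-WT, with 5.17 in Iah1-KO, and was at least 1.41-fold higher against the filter. Mbd1 differed by -0.41 and Mbd2 by 0.19. Among ID proteins and E proteins 4 of 7 lay below 0, with a median of -0.08, where Tcf4 differed by -0.48, Tcf12 by -0.32, Id2 by -0.15 and Id1 by 0.20.

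**Figure D4:**
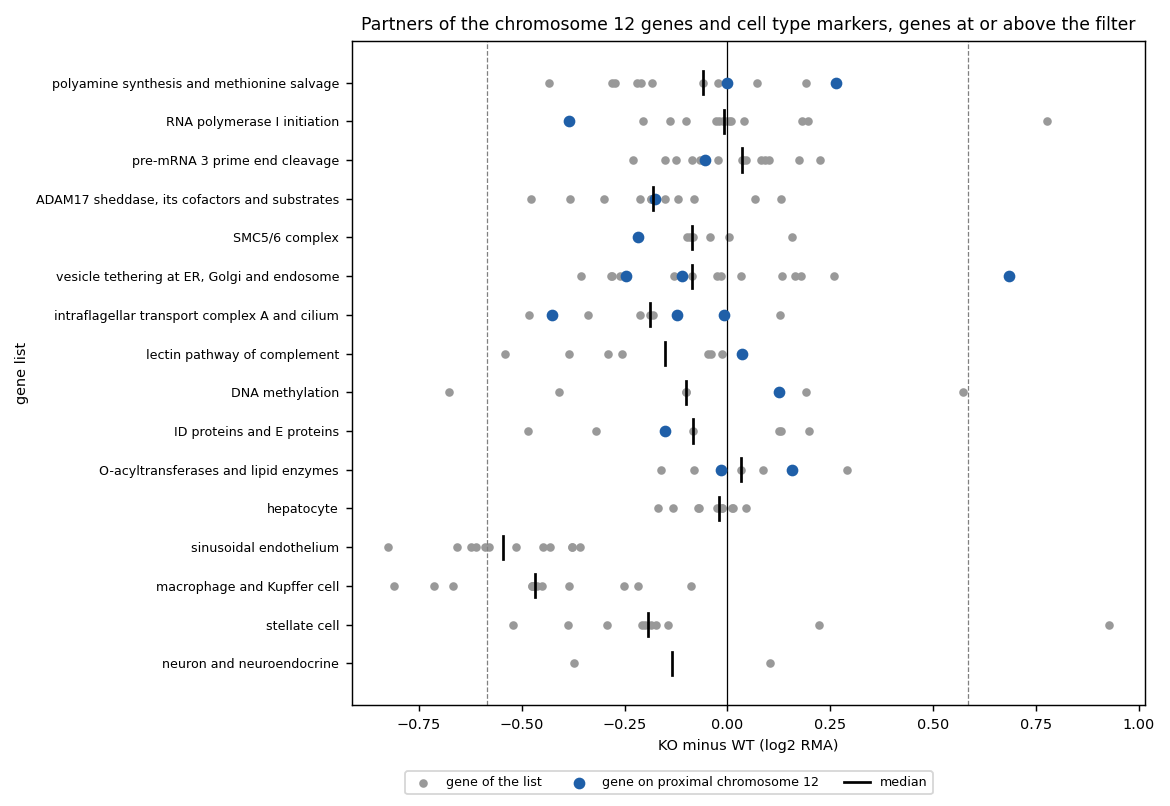
Iah1-KO minus Iah1-WT (log2 RMA, horizontal axis) for genes at or above the filter in each list (vertical axis), with blue points for genes on proximal chromosome 12, bars for list medians and dashed lines at 1.5-fold. Endothelial and macrophage markers lie wholly below 0, with medians of -0.55 and -0.47, while the hepatocyte median is -0.02.

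Markers of liver cells other than hepatocytes differed between the same 2 arrays, and their part in the values above was not tested. All 12 sinusoidal endothelial markers lay below 0 (median -0.55, 5 past 1.5-fold), and their log2 values summed to 91.1 in Iah1-KO and 97.4 in Iah1-WT, with Lyve1 at -0.83 and Tek at -0.66. All 12 macrophage and Kupffer cell markers lay below 0 as well (median -0.47, 3 past 1.5-fold), with sums of 84.0 in Iah1-KO and 89.5 in Iah1-WT, C1qb at -0.81 and Vsig4 at -0.71. Sums here are of log2 values and not of signals, so they only restate the mean difference of a list. In RNA of whole tissue, fewer cells of a type and less RNA per cell cannot be told apart. Stellate cell markers had 8 of 10 below 0 (median -0.19), with sums of 65.9 in Iah1-KO and 66.9 in Iah1-WT, Lrat at -0.52, and Des at 0.93. Des was below the filter in Iah1-WT, at 3.75, and had 4.68 in Iah1-KO, the value of the filter itself, so no fold holds for it as a bound. Hepatocyte markers had 7 of 10 below 0 (median -0.02), with sums of 113.525 in Iah1-KO and 113.95 in Iah1-WT, and Serpina1b at -0.17. Of 4 cholangiocyte markers measured only Sox9 reached the filter, at -0.17. None of 6 T and NK cell markers, 3 B cell markers or 4 neutrophil markers reached it, and of 6 neuron and neuroendocrine markers Syt1 (-0.37) and Rbfox3 (0.10) did.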

How the data were processed

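Liver RNA was measured on 2 Affymetrix arrays, 1 of Iah1-KO and 1 of Iah1-WT. The deposited table holds 1 log2 value per probe set and array, made per the submitters' processing notes with RMA in Affymetrix Expression Console 1.3.0. No source used here gives the genome build of the array annotation. Because RMA makes the arrays alike, a shift shared by all transcripts would be lost, and folds of dim probe sets can come out too small. The number of arrays limits the precision.

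Of 41345 probe sets, 23521 had 1 gene symbol, 1814 several and 16010 none. Gene values were means over probe sets with 1 symbol. Gene identifiers of all 54 measured genes matched the RefSeq table of GRCm38.p6. That table gave names, gene types, chromosomes, gene order and the gene spans set against the promoter windows. Promoters came from RefSeq in that build. The genes, the lists, the count at 1.5-fold and the rule for named genes were chosen with earlier results of these data known. That rule named Iah1, every chromosome 12 gene, up to 4 genes with the largest difference from each partner list and from the other genes of the interval, where predicted gene models were left out, and up to 2 from each cell type list. Vps50, Vps52, Vps54, Zw10, Ift122 and Gm6943 were named after their values were seen. With 1 array per genotype no test was made. Alternatives were the filter (none, 75th percentile), a loess fit (span 0.4), quantile normalization again, median subtraction, the brightest probe set, and thresholds of 0.32 on the log2 scale and of 2-fold. One partner list is not reported here. The counting step was tested on simulated data with planted changes far past the threshold. That test checks the code and not the precision of these arrays. Python 3.11.15, pandas 2.3.3 and statsmodels 0.14.6 were used.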

Additional observations from a re-analysis of the deposited data

How the results depend on the processing

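Under the 3 scaling alternatives (loess fit, quantile normalization again, median subtraction), the differences of 95 named genes moved by at most 0.05, less than the probe set standard deviation of 0.26. The filters leave a gene's value as it is, and the brightest probe set changed the value of 2 chromosome 12 genes at or above the filter, Sdc1 (0.08, against 0.25 as the mean of its probe sets) and Ywhaq (-0.01). Eipr1 ran between 0.68 and 0.73. Signs changed for 7 chromosome 12 genes whose difference was 0.04 or less in size (Adi1, Cys1, Hs1bp3, Pum2, Rdh14, Rnaseh1 and Ywhaq), so no direction holds for them. Without the filter, which admits Matn3, 2 of 54 chromosome 12 genes were higher by 1.5-fold, beside 572 of 22180 over all genes. At the lower threshold of 0.32 on the log2 scale the numbers were 2 higher and 4 lower, and at 2-fold 0 were higher, as these thresholds imply. Over all genes, 576 of 22180 were lower and 572 higher without the filter. With the filter at the 75th percentile, 61 of 5545 were lower and 18 higher. In the main setting 272 of 11090 were lower and 163 higher. Among the same 11090 genes, 1151 were lower and 734 higher at the lower threshold, and 34 lower and 15 higher at 2-fold. The filters change the number of genes, so their counts are to be read beside these totals. The filter at the 75th percentile left 18 chromosome 12 genes, 3 of them among the 5 nearest listed genes on each side of Iah1. No paired analysis was possible because each genotype had 1 array.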

Other observations

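Other genes lie between Dnmt3a and Sh3yl1, the first and last of the chromosome 12 genes followed here. Of 72 measured, 21 reached the filter, with 9 above 0 and 12 below and a median difference of -0.02. By RMA values Wdcp was the 1 past 1.5-fold, with 5.09 in Iah1-KO and 4.47 in Iah1-WT. The Iah1-WT value lay below the filter, and against the filter the gene was at least 1.33-fold higher, which does not reach 1.5-fold. Gm6943, a predicted gene, had the lowest difference, at -0.54, and the rule for named genes leaves such models out. Gdf7, a growth factor of the BMP family, differed by -0.36, Ptrhd1 by 0.33 and Cyria by -0.31. Gdf7 was below the filter in Iah1-KO and at least 1.03-fold lower against it.

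Chromosome 12 outside the listed genes and Iah1 had 352 genes at or above the filter, 7 of them higher and 8 lower by 1.5-fold or more, with a median of -0.02. Over 20 chromosomes, Iah1 left out, medians ran between -0.05 and -0.00456, and the share of genes past 1.5-fold between 2.64% and 5.41%.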
